A study of Mus musculus with 11 samples.

Results

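Müller glia are the radial glia of the retina, and they are among the last cells that retinal progenitors produce. The glia keep many progenitor genes on, among them Sox2, Sox9, Rax, Lhx2 and the targets of Notch, a receptor that neighbouring cells activate through Delta and Jagged ligands and that holds cells back from becoming neurons by inducing Hes and Hey repressors. The 35 genes described here are 11 Müller glia genes, including Clu, which encodes the secreted chaperone clusterin, 11 progenitor genes, 9 Notch pathway genes and 4 Id genes. They were chosen as a list of symbols, and all 35 were found among the 24421 genes of the count files. Clu was put on the list with its difference between genotypes already known.

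The genes were measured in J-RGCs, retinal ganglion cells (RGCs) of a type that responds to the direction of motion, from Tbr1 knockout mice (labelled Tbr1 KO) and control mice (labelled WT). Both genotypes had a mixed C57BL/6 and CD1 background, carried a green fluorescent reporter from a transgenic line specific for J-RGCs, and were taken at postnatal day 4 to 5. Sorted pools of 100 cells were sequenced as 11 libraries, 5 from control and 6 from mutant animals. Control animal b gave control libraries 2 and 3, mutant animal a gave mutant libraries 1 and 2, and mutant animal b gave mutant libraries 3 and 4. The other 5 animals gave a single pool each: control library 1 is animal a, 4 is c and 5 is d, and mutant library 5 is animal c and 6 is d. The labels name neither the reporter's driver nor the part of Tbr1 that was removed. Levels are TMM-normalised CPM (a gene's reads scaled to a common library total), and every comparison set 4 animals against 4 after the counts of each animal were summed.

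Reads counted over genes ranged from 8609845 to 34718693 per library, so that 3 reads, the limit a count of 0 allows, correspond to 0.0864 to 0.348 CPM. Intervals and floors of this kind cover counting error only, since the reads carried no molecular identifiers. The summed level of 12 pan-RGC markers was high in every animal, 18560 to 21800 CPM in controls and 19360 to 21070 in mutants. This sum does not show that each marker was level. At an unadjusted edgeR p under 0.05, 2 of the 12 were higher in mutants (Nefl and Nefm). Another 4 were lower (Pou4f1, Pou4f2, Isl1 and Thy1). Over all tested genes 3.4% were higher and 3.7% lower at that level, and none of the 12 passed after adjustment. The 5 J-RGC markers Jam2, Tbr1, Calb2, Cdh8 and Sorcs3 summed to 2099 to 2410 CPM in controls and 1033 to 1238 in mutants. Each of the 5 was lower in every mutant animal than in every control, as 2.48% of all tested genes were. Tbr1 is also the targeted gene, so the sum is not a count of J-RGCs. Photoreceptor markers were counted too, at a summed level of 33.03 to 293 CPM over 18 genes in controls and 29.8 to 1110 in mutants, with Opn1mw at 0 counts throughout. Mutant animal c was the one at 1110 CPM. Control animal a stood apart across the transcriptome: of all 13957 tested genes, 20.7% had their highest and 24.9% their lowest level of the 8 animals there. Tbr1 was still counted in the mutants (120 ± 23.4 CPM against 170 ± 16.5 in controls, SD, n = 4), and since the removed part is not known this does not check the labels.

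For the Notch effector gene Hes5, the bases before its start are shown because they hold the binding letters of the pathway's own nuclear factor. RBPJ, the DNA-binding partner of activated Notch, recognises the letters GTGGGAA, which were searched on both strands. This window holds the 250 bases before the Hes5 start on the plus strand (RefSeq, GRCm38.p6, chr4:154960673-154960922), with the RBPJ letters, or their reverse complement, in capitals.

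Hes5: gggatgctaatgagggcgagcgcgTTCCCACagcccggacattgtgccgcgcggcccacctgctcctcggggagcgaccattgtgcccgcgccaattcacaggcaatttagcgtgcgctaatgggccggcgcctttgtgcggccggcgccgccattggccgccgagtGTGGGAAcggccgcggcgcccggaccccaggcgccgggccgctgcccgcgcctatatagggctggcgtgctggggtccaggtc

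The 2 matches lie 226 to 220 and 83 to 77 bases before the start. Windows were found for 23 of the 35 genes. Clu is among the 12 without a window, so it was searched for neither motif. Among the 23, Hes5 was the 1 member whose window held the RBPJ letters on either strand, and 5.42% of all 32851 windows of this length hold them. Tbr1 itself belongs to the T-box family, whose core letters GGTGTGA, on either strand, occur in 3.33% of windows. None of the 33 windows of the 23 members holds them. The windows of Gpr37 (minus strand, chr6:25689981-25690230) and Id4 (plus strand, chr13:48260866-48261115) are shown because these genes had, beside Clu, the clearest separation of the genotypes by p. Neither has capitals, since the T-box letters are not in them. The Gpr37 window follows the RefSeq start. In GENCODE M21 the gene spans 25665878 to 25690729, so the window lies inside that gene model.

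Gpr37: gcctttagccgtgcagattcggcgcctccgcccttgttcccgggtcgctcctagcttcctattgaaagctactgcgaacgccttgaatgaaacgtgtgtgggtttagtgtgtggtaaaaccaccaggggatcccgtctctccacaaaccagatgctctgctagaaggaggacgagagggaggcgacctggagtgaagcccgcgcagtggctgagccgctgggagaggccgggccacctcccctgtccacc
Id4: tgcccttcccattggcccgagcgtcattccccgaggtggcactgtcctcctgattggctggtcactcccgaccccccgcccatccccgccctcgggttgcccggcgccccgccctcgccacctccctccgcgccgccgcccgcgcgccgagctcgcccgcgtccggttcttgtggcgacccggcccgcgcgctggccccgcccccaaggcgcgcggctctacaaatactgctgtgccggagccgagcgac

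A match or its absence describes letters in a window and says nothing about binding.

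The comparison of the genotypes asks which of these transcripts differ in the sorted pools when Tbr1 is lost. One gene passed: Clu rose in the mutants. A total of 33 of the 35 genes had enough counts to be tested, and 1 was called at an adjusted p under 0.05, against 0.287% of all tested genes in either direction, 0.086% higher and 0.201% lower. At an unadjusted p under 0.05 there were 6 genes (5 higher and 1 lower in mutants), where 7.09% of all tested genes reach that level, 3.4% of them higher and 3.7% lower. The 6 are Clu, Gpr37, Id4, Pax6, Sox2 and Jag1. The genotypes did not overlap for 5 genes (Clu, Gpr37, Id4, Pax6 and Jag1), which is 15.2% of those tested against 5.06% of all genes. Each of these counts includes Clu, whose difference was known when it was listed. Setting them beside the shares over all genes is therefore no test of the list. Log2 fold changes were positive for 28 of the 33 with a median of 0.57, while over all tested genes 49.9% were positive and the median was -0.00. The predominance of positive values moved with single animals in both directions. Without mutant animal c 20 of the 33 were positive (median 0.27), and without mutant animal a or b 30 were (medians 0.78 and 0.64). The other fits without 1 animal gave 24 to 29. Without control animal a and mutant animal c, a choice made after the data were seen, 19 were positive (median 0.13). With the photoreceptor marker mean as a covariate 21 were positive (median 0.14), and with the mean of Rlbp1, Glul and Slc1a3, themselves members, 17 were (median 0.01). All 15 photoreceptor markers that were tested had positive values, with a median of 1.86, and their part in the members' values was not tested beyond these fits.

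**Figure D1:**
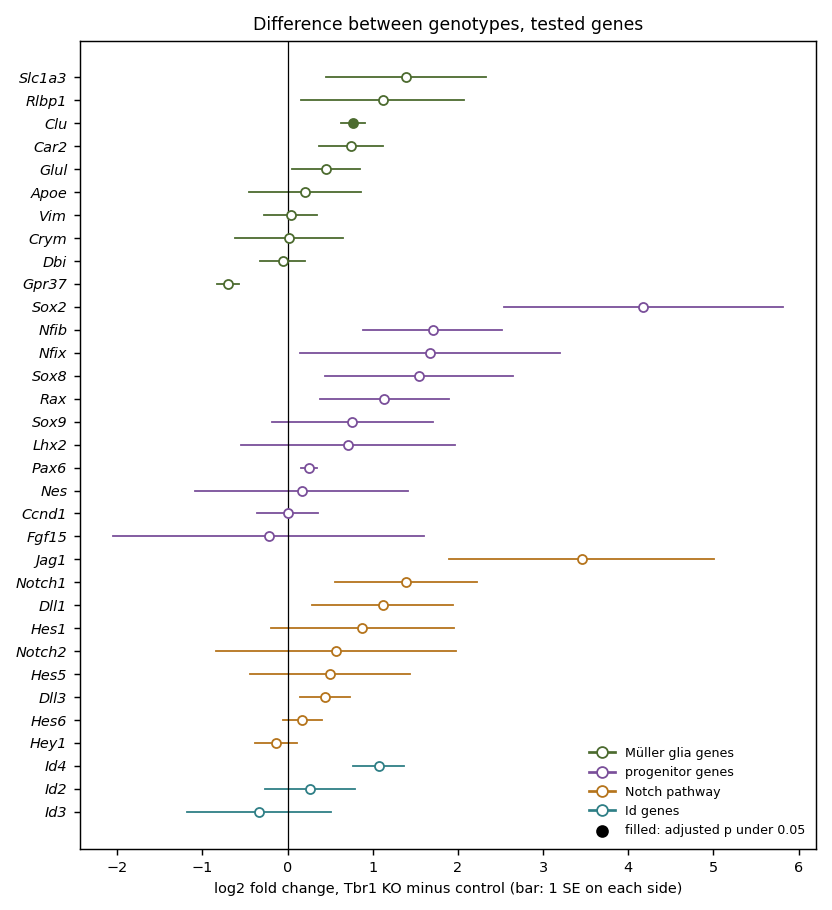
Log2 fold change of each of the 33 tested genes, Tbr1 KO minus control, from the edgeR fit over 4 against 4 animals, with bars of 1 standard error on each side and filled points for an adjusted p under 0.05. Clu is the filled point at 0.77; Sox2 and Jag1 have the largest values and among the longest bars, and Gpr37 is the lowest point.

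Clu (ENSMUSG00000022037.15, GRCm38 chromosome 14, 65968483 to 65981547) was at 54.1, 65.6, 60.4 and 60.5 CPM in control animals a to d and at 117, 101.1, 92.3 and 100.4 CPM in mutant animals a to d. Every mutant animal lay above every control animal, and the spread inside each genotype was small. The control mean was 60.1 ± 4.71 CPM and the mutant mean 103 ± 10.2 CPM (SD, n = 4 each), a log2 fold change of 0.77 ± 0.14 (SE). The edgeR quasi-likelihood test gave a Benjamini-Hochberg adjusted p of 0.0465, and the two-sided exact permutation p on log2 CPM was 0.0286, the smallest that 4 against 4 animals allow. The call was close to the threshold: the edgeR adjusted p was 0.0839 to 0.1999 when any 1 of the 8 animals was left out (0.0839 without control animal a, 0.0979 without b, 0.128 without c, 0.142 without d, and 0.1999, 0.155, 0.0929 and 0.101 without mutant animals a to d), while the log2 fold change stayed at 0.70 to 0.83. With the replicate number of the labels as a block over the 11 libraries it was 0.67, with an edgeR adjusted p of 0.188. In such bulk pools, fewer cells of a type and less RNA per cell cannot be told apart. At the level of single pools the genotypes overlapped by 1 library, since control library 3 was at 84.6 CPM and mutant library 4 at 84.3.

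The order of the animals in Clu differed in part from that in the glial genes. Control animal a, with 0 reads of Rlbp1 and of Sox9, also had the least Clu of the 4 controls, at 54.1 CPM. Mutant animal c, which had the most Rlbp1, had the least Clu of the 4 mutants. Across the 8 animals, after each genotype's mean was subtracted, Clu and Rlbp1 gave Pearson's r = 0.41 (exact permutation p = 0.328, 0.814 after Benjamini-Hochberg adjustment over 15 relations) and a Spearman rank correlation of 0.48 (exact permutation p = 0.243, adjusted 0.675). Without the 2 animals farthest from the median of Clu (control animal a and mutant animal a) r was 0.29, and without control animal a alone it was -0.70 (n = 7). With Glul, Slc1a3, Apoe, Dbi and Dkk3, Clu gave r of -0.37 to 0.51, with adjusted exact permutation p of 0.814 to 0.921, and none of these 6 relations of Clu passed. With the mean of Rlbp1, Glul and Slc1a3 as a covariate the log2 fold change of Clu was 0.74 (edgeR adjusted p = 0.144), and with the photoreceptor marker mean it was 0.82 (edgeR adjusted p = 0.110). The 5 tested genes most like Clu in log2 CPM over the 11 libraries were 9630001P10Rik (r = 0.97), Tmem120b (0.92), Mdga2 (0.91), Hpcal1 (0.87) and Vsig10l (0.86), a description that includes the difference between genotypes and libraries that share animals.

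**Figure D2:**
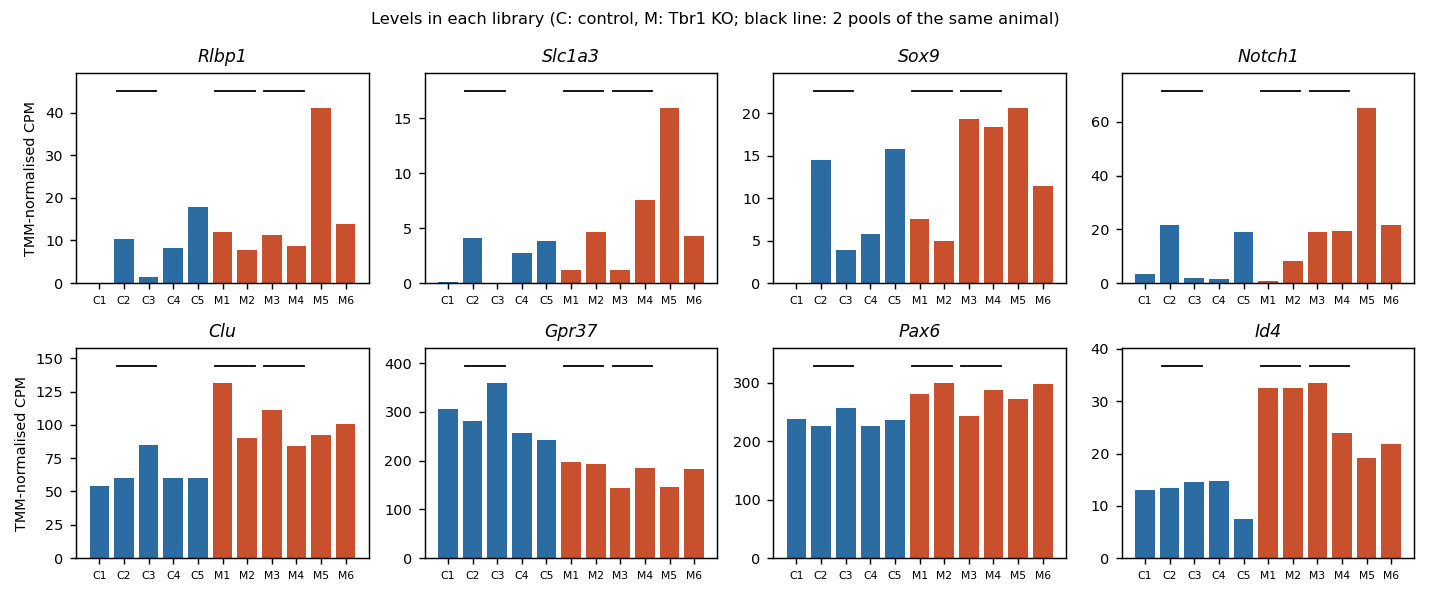
Normalised CPM of 8 genes in each of the 11 libraries, controls in blue and Tbr1 KO in red, with black lines over the pairs of pools that came from the same animal. Rlbp1, Slc1a3, Sox9 and Notch1 swing between 0 or near 0 and a peak in mutant library 5, while Clu, Gpr37, Pax6 and Id4 are counted in every library.

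Gpr37, which encodes an orphan receptor of the G protein-coupled family known from glia and neurons, went the other way. It was at 308, 299, 258 and 243 CPM in control animals a to d and at 196, 160, 146 and 182 CPM in mutant animals a to d. All 4 mutants lay below all 4 controls, as 2.48% of all tested genes did. The means were 277 ± 31.4 and 171 ± 22.5 CPM (SD, n = 4 each), a log2 fold change of -0.70 ± 0.13 (SE), and the edgeR adjusted p of 0.0531 missed the threshold. Of 22 other settings at the same threshold, 4 called Gpr37 and 18 did not. DESeq2 gave an adjusted p of 0.00017 and edgeR on the 11 libraries, which counts pools of the same animal separately, gave 0.00822, while limma-voom gave 0.0541, edgeR with the photoreceptor covariate gave 0.193, and edgeR without any 1 animal gave 0.0688 to 0.235. The level of Gpr37 per kilobase of exon (45.7 CPM per kb in controls and 28.2 in mutants) was above that of Rlbp1 (2.93 and 6.37) in both genotypes.

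Classical Müller glia genes were low in these pools and varied from animal to animal more than between genotypes. Rlbp1, the retinaldehyde-binding protein of the glial visual cycle, was at 0, 8.37, 8.25 and 18.0 CPM in control animals a to d and at 10.47, 10.2, 40.9 and 13.7 CPM in mutant animals a to d. Slc1a3, the glutamate transporter that clears transmitter, was at 0.0807, 3.19, 2.79 and 3.83 CPM in the controls and 2.41, 3.59, 15.9 and 4.23 CPM in the mutants. Mutant animal c was highest and control animal a lowest for both genes, and the genotypes overlapped. Glul, glutamine synthetase, was at 17.9, 39.7, 12.8 and 17.2 CPM in the controls and 19.7, 17.1, 41.2 and 41.8 CPM in the mutants, with a different order of animals. Log2 fold changes were 1.12 ± 0.96 (SE) for Rlbp1, 1.40 ± 0.94 for Slc1a3 and 0.45 ± 0.40 for Glul, and the edgeR adjusted p-values were 0.871 to 0.927. Without control animal a and mutant animal c, an alternative chosen after the data were seen, the value of Rlbp1 was -0.00.

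Apoe, the lipid carrier made by glia and by microglia, was the highest Müller glia gene per kilobase over all animals (44.3 CPM per kb). It was at 158, 96.2, 48.2 and 50.6 CPM in control animals a to d and at 71.7, 106, 211 and 17.5 CPM in mutant animals a to d. It was high in control animal a, where Rlbp1 was at 0, and lowest in mutant animal d. Of 12 vascular and microglial markers 9 were tested, and their summed level was 28.9 to 110 CPM in controls and 18.6 to 71.2 CPM in mutants, highest in control animal a and lowest in mutant animal d as well. In mutant animal d the microglial genes C1qa and Csf1r had 0 counts, against 14.8 and 19.6 CPM in control animal a. Of the other microglial genes, P2ry12 was also at 0 in mutant animal d, and Cx3cr1 was at 0.157 CPM. C1qb and Aif1 were still counted in mutant animal d, at 6.645 and 4.576 CPM, against 12.62 and 11.9 CPM in control animal a. Mutant animal c, with the most Apoe, had 43.8 CPM of these markers. The part of these cells in the level of Apoe was not tested.

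The other Müller glia genes overlapped between the genotypes. Car2, carbonic anhydrase, had the largest value among them, with mean levels of 18.1 ± 5.56 CPM (controls) and 30.4 ± 15.5 CPM (mutants; SD, n = 4; log2 fold change 0.74 ± 0.38, edgeR adjusted p = 0.763). Dbi, an acyl-CoA-binding protein, Vim, the intermediate filament vimentin, and Crym, a thyroid hormone-binding protein, had log2 fold changes of -0.06, 0.04 and 0.02. Aqp4, the glial water channel, was not tested: it had 112 reads in control library 2, 79 in mutant library 5 and 0 in the other 9 libraries. Of the 10 Müller glia genes tested, 1 rose (Clu), none fell, and the median log2 fold change was 0.33.

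The list of 20 further Müller glia genes holds 14 that were tested, with a median log2 fold change of 0.76. Dkk3, a secreted protein related to the Wnt inhibitors, rose from 158 ± 26.9 to 265 ± 21.8 CPM (SD, n = 4; log2 fold change 0.74 ± 0.14 SE, edgeR adjusted p = 0.0495). The call of Dkk3 was lost in 7 of 8 fits without 1 animal and kept without control animal d (edgeR adjusted p of 0.0491 to 0.209 over the 8), and it was lost with the photoreceptor covariate (0.193) and the glial covariate (0.149). Sfrp2, a secreted Wnt antagonist of progenitors, was lower in all 4 mutants (18.9 ± 2.71 against 6.97 ± 3.49 CPM) with an edgeR adjusted p of 0.314. Fabp7, the fatty acid-binding protein of radial glia, was at 4.36, 13.7, 17.4 and 26.5 CPM in control animals a to d and 10.4, 55.3, 94.5 and 31.5 CPM in mutant animals a to d (edgeR adjusted p = 0.550). Abca8a, Gpr37l1 and Itih5 had 0 counts in all libraries.

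Among the progenitor genes, Pax6 had the highest level per kilobase (21.9 CPM per kb over all animals) and the smallest spread. Pax6, the homeodomain factor that progenitors keep and that ganglion cells also express, was at 238, 234, 227 and 236 CPM in control animals a to d and at 286, 260, 271 and 296 CPM in mutant animals a to d. The mutants all lay above the controls, as 2.58% of all tested genes did, by a small step. The log2 fold change was 0.25 ± 0.10 (SE) with an edgeR adjusted p of 0.575, and the standard deviation within a genotype, 0.062 log2 CPM, was the smallest of the 33 tested genes. Ccnd1, cyclin D1, was at 25.9 ± 13.2 CPM in controls, and the mutant mean differed from it by less than 1 SD (log2 fold change 0.00 ± 0.36 SE).

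Sox9, the SRY-box factor that marks progenitors and glia, was at 0, 12.2, 5.81 and 15.9 CPM in control animals a to d and at 6.59, 18.9, 20.5 and 11.4 CPM in mutant animals a to d. As for Rlbp1, control animal a was at 0 and mutant animal c highest, but the other mutant animals were ordered differently. With genotype means subtracted, r between Sox9 and Rlbp1 was 0.98 over the 8 animals and 0.59 without control animal a. Sox8 (0 to 5.08 CPM in controls, 1.49 to 16.9 in mutants), Lhx2 (0 to 3.78 and 0.484 to 5.30 CPM) and Rax (3.27 to 24.5 and 3.65 to 75.8 CPM), the last pair encoding homeodomain factors of the eye field, were also highest in mutant animal c. None of these 4 passed, with log2 fold changes of 0.71 to 1.54 and edgeR adjusted p of 0.865 to 0.977.

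Sox2, the pluripotency and progenitor factor, was at 0.0807, 0, 0 and 0.502 CPM in control animals a to d and at 0.223, 4.29, 3.53 and 2.70 CPM in mutant animals a to d. Mutant animals b to d were above every control, and mutant animal a was inside the control range. The fitted log2 fold change of 4.18 ± 1.64 (SE) rests on 18 control reads in all and depends on the prior count, and the edgeR adjusted p was 0.583. Nfib and Nfix, nuclear factor I proteins of late progenitors, had log2 fold changes of 1.70 ± 0.81 and 1.67 ± 1.53, with Nfib at 14.9 CPM in mutant animal c and at most 4.50 in any other animal. Nes, the filament nestin, and Fgf15, a growth factor of the neuroepithelium, were patchy: Nes had 0 counts in 3 libraries and Fgf15 in 5. None of the 11 progenitor genes passed over all genes, and the median log2 fold change was 0.76.

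Among 14 further progenitor factors 12 were tested and none passed, with a median log2 fold change of 0.46. Otx2, a homeodomain factor of photoreceptor and bipolar precursors, was at 9.99 to 36.5 CPM in controls and 11.7 to 157 in mutants, highest in mutant animal c. Btg2, an antiproliferative gene, and Insm1, a zinc-finger factor of newborn neurons, peaked in the same animal at 86.4 and 13.6 CPM. Of 21 cell cycle genes 18 were tested, none passed, and the median log2 fold change was -0.07. Top2a, Ccne1 and Cdk2, with the smallest p-values of that list, had log2 fold changes of -1.56 ± 1.01, -0.66 ± 0.43 and 1.93 ± 1.67 (SE).

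Notch pathway genes were led by Hes6, a Hes-family protein that counteracts Hes1 and favours neuronal differentiation. Per kilobase it was the highest of all 35 genes (46.8 CPM per kb over all animals). It was at 75.7, 80.4, 70.8 and 91.3 CPM in control animals a to d and at 83.3, 61.6, 141 and 72.9 CPM in mutant animals a to d. Mutant animal c was well above the other 7 animals, mutant animal b was lowest, and the fitted difference was small (log2 fold change 0.17 ± 0.23 SE). Hey1, a Notch-induced repressor, kept a narrow range, at 15.01 to 23.8 CPM in controls and 16.96 to 19.1 CPM in mutants.

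Notch1, the receptor, and Hes5, its target shown above, varied widely. Notch1 was at 3.51, 17.4, 1.54 and 19.1 CPM in control animals a to d and at 3.39, 19.1, 64.8 and 21.5 CPM in mutant animals a to d. Hes5 was at 4.28, 25.7, 0.203 and 20.03 CPM in the controls and at 6.15, 17.5, 38.0 and 9.40 CPM in the mutants. Control animals b and d and mutant animals b and c were among the higher ones for both genes, and control animals a and c and mutant animal a were low for both. Picked out after their values were seen, the pair gave r = 0.85 over the 8 animals with genotype means subtracted, a description with no test. Hes1, the other main Hes repressor, stayed low, at 0.363, 4.20, 2.03 and 0.628 CPM in the controls and 0.869, 0.933, 2.25 and 9.28 CPM in the mutants. Its relation to Notch1 (r = 0.28), Hes5 (r = -0.03) and Id3 (r = 0.08) did not pass (exact permutation p = 0.488, 0.954 and 0.852, adjusted 0.814, 0.954 and 0.921).

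Of the ligands, Dll3, a divergent Delta protein of newborn neurons, was counted in every library at 15.6 to 48.2 CPM, and Dll1, the main Delta ligand of progenitors, at 0.32 to 9.58 CPM. Their log2 fold changes were 0.44 ± 0.30 and 1.12 ± 0.82 (SE), with edgeR adjusted p of 0.868 and 0.891. Jag1, a ligand of the Jagged class, was at 0, 0, 0.407 and 0.126 CPM in control animals a to d and 0.602, 1.87, 2.61 and 0.940 CPM in mutant animals a to d. The mutants all lay above the controls, at levels near the counting floor: in the pools, 2 of the 6 mutant libraries had 0 counts. Its log2 fold change of 3.45 ± 1.56 (SE) rests on 18 control reads, and the edgeR adjusted p was 0.688. Notch2, a second receptor, was at no more than 2.56 CPM in any control and 4.51 in any mutant animal. None of the 9 passed, and the median log2 fold change was 0.57.

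The rest of the pathway, 30 genes for receptors, ligands, processing enzymes, glycosyltransferases and nuclear partners, was counted at a higher summed level (1818 to 2204 CPM in controls and 1904 to 1945 in mutants). Dner, a Delta- and Notch-related receptor of neurons, made up a large part, with 657 to 1003 CPM in controls and 730 to 772 in mutants. Of 28 tested genes none passed, and the median log2 fold change was -0.12. Ncstn, a subunit of the gamma-secretase that releases the Notch intracellular domain, and Rfng and Mfng, fringe glycosyltransferases that tune ligand choice, had the smallest p-values, with log2 fold changes of -0.30 ± 0.15, -0.20 ± 0.12 and -0.90 ± 0.53 (SE) and edgeR adjusted p of 0.771 to 0.826.

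Id proteins bind basic helix-loop-helix partners without binding DNA, and their genes are classical targets of BMP signals. Id4 was the highest of them per kilobase (4.95 CPM per kb over all animals). It was at 13.1, 13.8, 14.8 and 7.50 CPM in control animals a to d and at 32.5, 29.9, 19.1 and 21.8 CPM in mutant animals a to d. All mutants lay above all controls, in the pools as well, where the lowest mutant library was at 19.1 CPM and the highest control library at 14.7. The means were 12.3 ± 3.26 and 25.8 ± 6.41 CPM (SD, n = 4 each), a log2 fold change of 1.07 ± 0.30 (SE), and the edgeR adjusted p of 0.308 did not pass. Exons of Id4 overlap the antisense genes A330033J07Rik and Gm49291, and the sources used here do not say whether reads were counted by strand. The same two-sided exact permutation p of 0.0286 was reached by Gpr37, Pax6, Jag1 and Id4, unadjusted for the number of genes.

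Mean levels of Id2 were 5.24 ± 1.54 and 6.30 ± 2.65 CPM in controls and mutants, and those of Id3 3.84 ± 1.95 and 3.04 ± 2.72 (SD, n = 4). Id1 was not tested: it had 0 counts in all 5 control libraries and 71 in the mutants, from libraries 3, 4 and 6, which is at least 18.7-fold higher if the controls together are set to 3 counts. Mutant library 4 held 33 of these reads, and without it the remaining 38 give at least 11.5-fold, while mutant animals a and c had 0 counts. Of the 16 BMP pathway and E-protein genes 12 were tested and none passed, with a median log2 fold change of 0.17. Tcf3, an E protein, Bmpr2, a BMP receptor, and Smad5, its signal transducer, had log2 fold changes of 0.35 ± 0.27, 0.25 ± 0.24 and -0.28 ± 0.31 (SE).

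**Figure D3:**
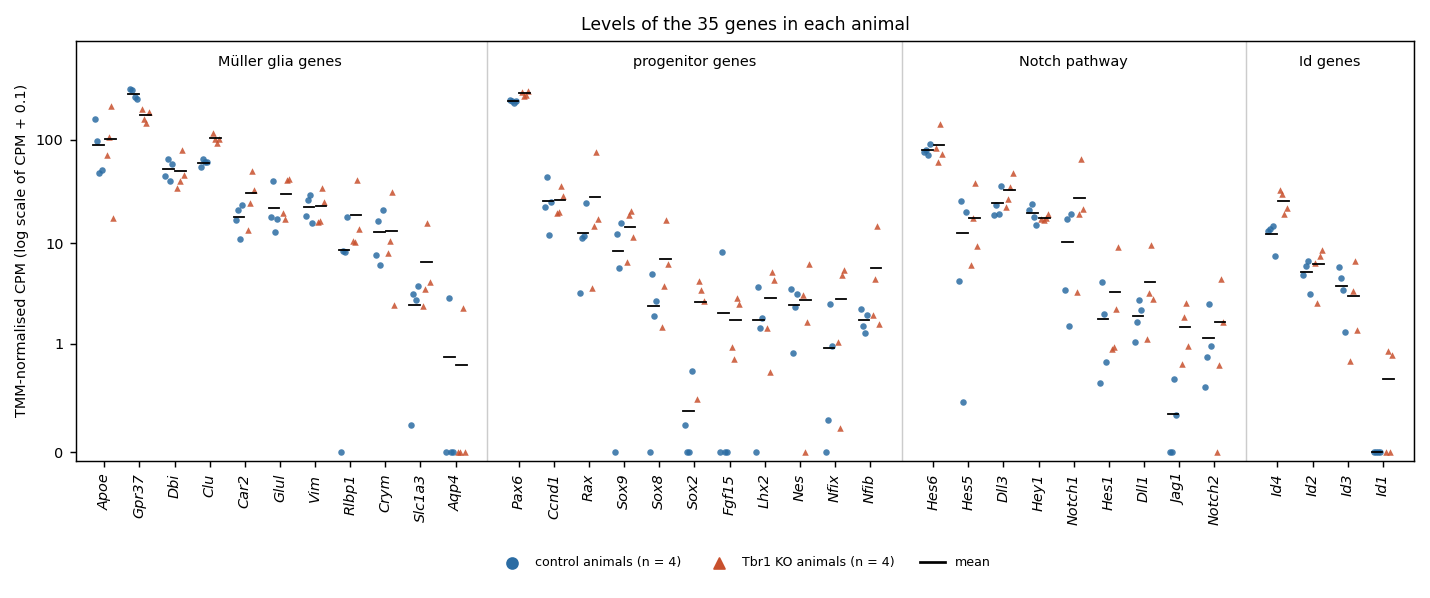
Normalised CPM of the 35 genes in each of 4 control animals (blue circles) and 4 Tbr1 KO animals (red triangles), on a log scale of CPM plus 0.1, with black lines at the mean, grouped by role and ordered by level per kilobase. Pax6, Gpr37 and Clu form tight, separated sets, while many genes at 10 CPM or less spread widely within each genotype, some from 0.

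The animals differed from each other in many of these genes at once. Mutant animal c had the highest level of the 8 animals for 19 of the 33 tested genes (57.6%), against 13.3% of all tested genes. Control animal a had the lowest level for 12 of them (36.4%), against 24.9% of all tested genes. In mutant animal c the summed photoreceptor markers were also at their highest. The sort gate, the number of other cells in a pool and the state of the tissue are not in the labels, and their part in these levels was not tested.

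Rlbp1 and Slc1a3 varied together: r was 0.97 over the 8 animals after genotype means were subtracted (exact permutation p = 0.00156, 0.0234 after adjustment over the 15 relations) and 0.91 without control animals a and d, the 2 farthest from the median of Rlbp1. The Spearman rank correlation was 0.83 (exact permutation p = 0.0154, adjusted 0.231). The adjusted exact permutation p for r missed the threshold when mutant animal b (0.0506) or d (0.0804) was left out. With Glul, Apoe and Dbi, Rlbp1 gave r of 0.18, -0.31 and 0.37, none of which passed (adjusted exact permutation p of 0.814 to 0.921). As a description over the members, r with Rlbp1 was above 0.9 for 4 of 32 genes (Slc1a3, Sox8, Sox9 and Lhx2) and, without control animal a, for 1 (Slc1a3). In that setting Rax (0.86), Hes6 (0.90) and Dbi (0.83) were close to it, and Id4 (-0.85), Gpr37 (-0.72) and Clu (-0.70) ran against it. The 5 tested genes most like Rlbp1 over the 11 libraries were Fam212a, Gpr108, Rngtt, Rasal2 and Sox9 (r of 0.96 to 0.97), and all 5 had their lowest level in control library 1.

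**Figure D4:**
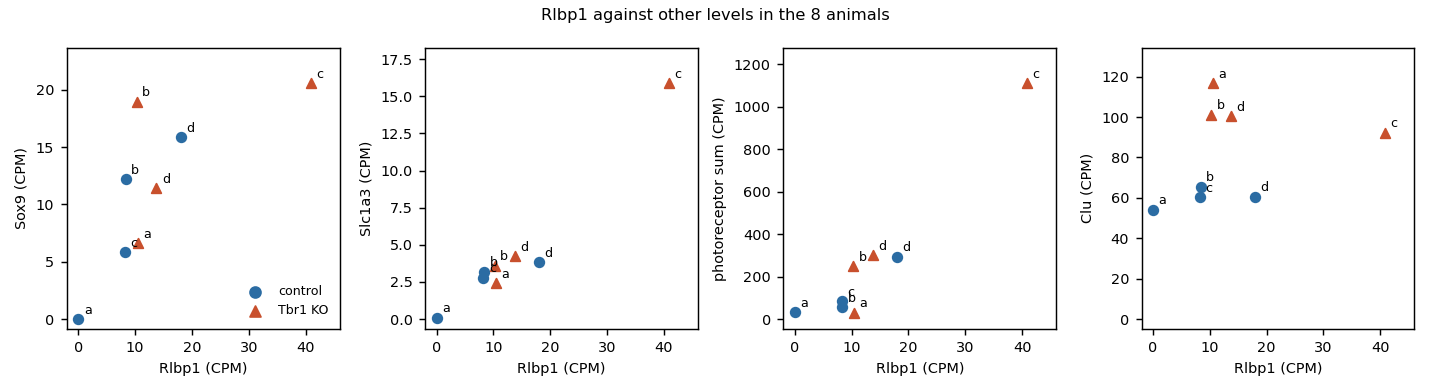
Rlbp1 in each animal (x axis, CPM) against Sox9, Slc1a3, the summed photoreceptor markers and Clu (y axes, CPM), controls as blue circles and Tbr1 KO as red triangles, with letters naming the animals. Mutant animal c is at the top right for Sox9, Slc1a3 and the photoreceptor sum, and Clu is higher in each mutant than in each control, with controls alone below 10.2 CPM of Rlbp1 and mutants alone above 17.99.

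Pools of the same animal show how much of this spread arises below the level of the animal. In control animal b, library 2 exceeded library 3 for 25 of the 33 tested genes, with a median absolute difference of 1.17 log2 CPM against 0.52 over all tested genes. How many of all tested genes were higher in the first pool was not counted for any animal. Library 3 was the shallower of the pair, with 8609845 reads in genes against 31033784 in library 2. Rlbp1 was at 10.3 and 1.504 CPM in the pair, Notch1 at 21.7 and 2.08, and Slc1a3 at 4.10 CPM and 0. In mutant animals a and b the median differences were 0.63 and 0.48 log2 CPM, against 0.43 and 0.40 over all tested genes, with 19 and 17 of the 33 genes higher in the first pool. Pax6, Vim, Gpr37 and Id4 differed by at most 0.24, 0.19, 0.37 and 0.48 log2 CPM in any pair, Clu by at most 0.54, and Apoe by up to 1.75.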

How the data were processed

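Sorted J-RGC pools were amplified with Smart-seq2, made into single-end libraries with Nextera XT, per the labels' protocols. For each of the 11 libraries, the authors deposited raw counts by gene symbol. The submitters' processing notes list Trimmomatic 0.32, TopHat2 2.0.10, HTSeq 0.6.1 and mm10 (GRCm38), and the sources used here name no annotation or strand option. Library totals leave out 5 lines without a gene name, and 60.1% to 63.9% of listed reads were in genes.

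Libraries of an animal were summed. After filterByExpr, 13957 genes were scaled by TMM. The genotypes were compared by edgeR 4.0.16 (R 4.3.3) with its robust quasi-likelihood F test, and p-values were adjusted over these genes by Benjamini-Hochberg, with a threshold of 0.05. Standard errors are the log2 fold change over the root of F. Log2 CPM for permutations and correlations used a prior count of 0.5. In simulated counts (13667 genes, 4 against 4 animals), only genes with a mean above 5 CPM were changed. Their spread followed the trend over all genes. Of these, 42% of the genes with a 2-fold change and 79% of those with a 4-fold change were found, beside 5 wrong calls. Many members lie below 5 CPM, and the rates do not cover them. Levels per kilobase used GENCODE M21 exon unions, and promoter windows came from RefSeq. Alternatives include limma 3.58.1 (voom) and DESeq2 1.42.0. The labels give no batch, and p-values measure the spread between these animals.

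The members and lists were chosen with earlier results of these data known. Every member is named. Values by animal are given for members with an unadjusted p under 0.05, for Glul, Rlbp1, Slc1a3, Sox9 and Hes1, and for the highest per kilobase in each role. Those of Notch1 and Hes5 are given outside this rule, since the pair was picked out after its values were seen. Other pathway lists give up to 3 genes, called ones first and then by p, and Dner was added after its values were seen. Some of the 15 relations between genes over animals, which were adjusted together, are not reported here.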

Additional observations from a re-analysis of the deposited data

Results flagged for a closer look

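Among 69 groups of 4 animals (each member in each genotype with a nonzero range), 7 held an animal whose gap to the next one exceeded Dixon's critical share of the range, where chance gives about 1 in 20. In 3 of the 7 (Aqp4 in both genotypes and Fgf15 in controls) the other 3 animals were at 0, so the gap fills the range by construction and that chance share does not apply. Mutant animal c stood above the other mutants for Rlbp1 (40.9 CPM against 10.2 to 13.7), for Slc1a3 (15.9 against 2.41 to 4.23) and for Aqp4 (2.34 against 0). Control animal b stood above the other controls for Aqp4 (2.90 CPM against 0) and Fgf15 (8.24 against 0). Control animal d was highest for Sox2 (0.502 CPM against 0 to 0.0807), and mutant animal d for Hes1 (9.28 CPM against 0.869 to 2.25).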

How the results depend on the processing

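The count of members called was 1 with all settings as reported. It was 2 with library size alone, at least 10 CPM in 4 animals, a threshold of 0.10 or DESeq2, and 0 with the replicate block, either covariate, limma-voom, without control animal a and mutant animal c, or without any 1 animal (0 to 0). Clu, above 0 throughout, lost its call on 11 separate libraries (0.68, edgeR adjusted p = 0.0652), with the photoreceptor (0.82) or glial covariate (0.74), limma-voom (0.76, adjusted p = 0.0546), without control animal a and mutant animal c (0.78, edgeR adjusted p = 0.128) and without any 1 animal (0.70 to 0.83). On 11 libraries the 1 member called was Gpr37. The count of pathway list genes called was 1, and 0 with upper-quartile scaling, the deepest library of each animal, no robust option, either covariate, without control animal a and mutant animal c, and 0 to 1 without 1 animal. The relations that passed were 1, and 0 to 2 without 1 animal. All-gene calls were 40, but 84 on 11 libraries, 156 with DESeq2, and 18, 22, 17 and 25 without control animal b and mutant animals a, b and d. The cause was not tested.

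Libraries that share a number in the labels correlated at -0.03 to 0.14 over 5 pairs. Of the 5 control libraries, 3 correlated best with the mutant library of their own number. These values do not settle whether the numbers pair the samples. With the replicate block, Clu was at 0.67 (edgeR adjusted p = 0.188), 0 members and 43 of all genes were called.

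Of 32 other tested members 21 changed sign in at least 1 of 23 alternatives; none of these had passed. Log2 fold changes of opposite sign were, with the glial covariate, Rlbp1 -0.19, Crym -0.57, Vim -0.20, Sox8 -0.10, Sox9 -0.032, Rax -0.046, Lhx2 -0.75, Nfix -0.20, Ccnd1 -0.21, Notch2 -0.73 and Hes5 -0.23. That covariate is the mean of Rlbp1, Glul and Slc1a3, so Rlbp1 was there adjusted for itself, and its value is no separate check. Without control animal a and mutant animal c, a choice made after seeing the data, they were Rlbp1 -0.001, Crym -1.06, Vim -0.30, Rax -0.40, Lhx2 -0.16, Ccnd1 -0.24, Notch2 -0.90, Hes5 -0.47 and Hes6 -0.15. With limma-voom they were Apoe -0.00, Crym -0.34, Vim -0.089, Nes -1.995, Fgf15 3.97 and Notch2 -1.21. With the photoreceptor covariate they were Crym -0.55, Vim -0.19, Rax -0.61, Fgf15 0.34, Ccnd1 -0.088, Notch1 -0.24, Notch2 -3.18, Dll1 -0.018 and Hes5 -0.36. With the replicate block they were Vim -0.24, Nes -0.94, Fgf15 1.46, Ccnd1 -0.11, Notch2 -1.47, Hes1 -0.15 and Id2 -0.12. On 11 libraries they were Vim -0.13 and Ccnd1 -0.11, and on the deepest library of each animal Crym -0.18 and Ccnd1 -0.16. Without 1 animal the ranges were Apoe -0.43 to 0.65, Crym -0.88 to 0.36, Dbi -0.36 to 0.086, Vim -0.21 to 0.19, Rax -0.078 to 1.68, Nes -0.64 to 0.58, Fgf15 -0.63 to 9.03, Ccnd1 -0.23 to 0.38, Notch2 -0.59 to 1.34, Hes1 -0.42 to 1.72, Hes5 -0.19 to 1.12, Hes6 -0.12 to 0.32 and Id3 -1.07 to 0.001. Sox2, Jag1 and Id1 had at most 18 reads in all controls together, so their fold changes are imprecise at this depth.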
